A study of Mus musculus with 6 samples.

Results

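The 10 genes Foxo1, Foxo3, Klf2, Klf3, Klf4, Satb1, Btg1, Tsc22d3, Cdkn1b and Foxp1 were described in B cells of mice lacking PP2Aa, a scaffold subunit of protein phosphatase 2A that Ppp2r1a encodes, and in wild-type (WT) B cells. They were taken by symbol from the 22788 genes of 1 deposited expression table, as factors of resting lymphocytes that lie under control of the kinase AKT, and all 10 had a row. PP2Aa-deficient cells came from mice with a Cre recombinase active in B cells and with both copies of Ppp2r1a floxed. WT cells came from mice labelled as wild type, with no Cre and no floxed allele named. Both groups had the C57BL/6 background and were 8 weeks old, and each had 3 libraries. The labels give the spleen as the tissue while their protocols describe a peritoneal wash, and the sources used here do not settle which holds. Whether each library is a different mouse is not stated, so the p-values reflect only how these libraries varied.

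FOXO factors are forkhead transcription factors that keep lymphocytes at rest and maintain their survival and homing programmes. When the antigen receptor activates PI3 kinase, AKT phosphorylates FOXO proteins, 14-3-3 proteins bind them, and they leave the nucleus. Protein phosphatase 2A can remove such phosphates from AKT and from FOXO proteins. KLF2, whose gene is a FOXO1 target in lymphocytes, restrains division and sustains receptors for recirculation, and KLF4 restrains division in B cells. Control of this kind acts on the proteins, which were not measured here: the values are RNA levels in FPKM, fragments scaled by transcript length and library size, so levels of different genes can be set side by side per length.

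The genotype was visible in Ppp2r1a itself, which had 31.3, 56.2 and 28.2 FPKM in PP2Aa-deficient libraries, against 85.7, 85.4 and 83.7 FPKM in WT libraries. The groups were separate, but the log2 fold change of -1.18 (SE 0.23) did not pass the test (limma adjusted p = 0.168 over 9425 genes tested). PP2Aa-deficient replicate 2 kept the most Ppp2r1a, and without it the log2 fold change was -1.48 (limma adjusted p = 0.00555). FPKM of the whole gene also counts transcript outside the deleted part. The B cell identity of the cells was clear in both groups, with summed FPKM of 8 B cell markers between 3075 and 3478 in PP2Aa-deficient libraries and between 3187 and 3301 in WT libraries. The summed FPKM of 9 plasma cell markers ran from 692 to 954 in PP2Aa-deficient libraries and from 1288 to 1999 in WT libraries. Igj and Mzb1 made up most of this sum. Igj was at 200, 461 and 186 FPKM in PP2Aa-deficient libraries, against 1167, 816 and 792 FPKM in WT libraries. Mzb1 overlapped, at 326, 302 and 314 FPKM against 574, 236 and 284 FPKM. Groups were separate and lower in PP2Aa-deficient libraries for 4 of the 9 markers, Igj among them, against 7.40% of all genes tested. The 14 macrophage markers summed to between 101 and 159 FPKM in PP2Aa-deficient libraries and between 186 and 360 FPKM in WT libraries. Apoe made up most of this sum, and the other 13 markers summed to between 18.9 and 27.1 FPKM in PP2Aa-deficient libraries and between 27.6 and 34.3 FPKM in WT libraries. No marker of these lists was listed at 0 in all 6 libraries. Xist, which coats the silenced X chromosome, reached 84.5 FPKM in PP2Aa-deficient replicate 1 and 65.2 FPKM in WT replicate 1 and under 1 FPKM elsewhere. Female and male cells were therefore both present in each genotype, and the libraries of a group were not all repeats of 1 mouse. Genotype followed the order of the wells on the plate, so well position and genotype cannot be told apart.

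Promoters of 4 of the genes are shown because the named factors can be read against them: Btg1 and Klf4 hold the core of the forkhead motif, and Klf2 and Satb1 hold the core of the KLF motif. Each window runs from 250 bases before to 50 bases after an annotated start in RefSeq (build GRCm38.p6), 5′ to 3′ on the strand of the gene, and capitals mark the matches. The windows are chr10:96616751-96617050 (plus strand) for Btg1, chr4:55532426-55532725 (minus strand) for Klf4, chr8:72318812-72319111 (plus strand) for Klf2 and chr17:51833241-51833540 (minus strand) for the outermost of the 5 annotated starts of Satb1.
Btg1: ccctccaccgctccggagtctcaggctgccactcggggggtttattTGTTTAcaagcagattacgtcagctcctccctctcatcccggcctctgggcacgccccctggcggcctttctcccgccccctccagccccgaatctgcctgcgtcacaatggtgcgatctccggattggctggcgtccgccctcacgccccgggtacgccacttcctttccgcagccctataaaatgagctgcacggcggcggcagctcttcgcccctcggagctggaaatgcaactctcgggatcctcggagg
Klf4: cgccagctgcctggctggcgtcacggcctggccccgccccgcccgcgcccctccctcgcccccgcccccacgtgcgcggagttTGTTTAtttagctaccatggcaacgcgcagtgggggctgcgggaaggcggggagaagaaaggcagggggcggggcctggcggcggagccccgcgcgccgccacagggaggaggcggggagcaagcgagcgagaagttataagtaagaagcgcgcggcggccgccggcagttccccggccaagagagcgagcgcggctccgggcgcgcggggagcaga
Klf2: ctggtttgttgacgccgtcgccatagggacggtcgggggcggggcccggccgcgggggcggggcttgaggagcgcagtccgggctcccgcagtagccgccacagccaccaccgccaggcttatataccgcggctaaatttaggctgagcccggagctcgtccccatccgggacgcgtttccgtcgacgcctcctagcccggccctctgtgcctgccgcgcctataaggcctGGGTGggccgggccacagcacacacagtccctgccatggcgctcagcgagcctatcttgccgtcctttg
Satb1: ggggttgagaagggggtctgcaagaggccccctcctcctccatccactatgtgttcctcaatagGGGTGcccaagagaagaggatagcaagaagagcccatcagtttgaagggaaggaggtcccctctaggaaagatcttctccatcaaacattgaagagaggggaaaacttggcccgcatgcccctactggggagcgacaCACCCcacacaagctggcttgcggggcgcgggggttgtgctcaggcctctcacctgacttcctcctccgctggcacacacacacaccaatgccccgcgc

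All 10 genes matched the RefSeq promoters, with 18 windows between them. The forkhead core, searched as TGTTTA on either strand (TAAACA on the other), was present in windows of 4 of the 10 genes, namely Btg1, Cdkn1b, Foxp1 and Klf4, or 6 of the 18 windows, and in 13.4% of 32851 promoter windows of all genes. The KLF core, searched as CACCC on either strand (GGGTG on the other), was present in windows of 5 of the 10 genes, namely Foxp1, Klf2, Klf3, Satb1 and Tsc22d3, or 10 of the 18 windows, and in 57.5% of the promoter windows of all genes. The KLF core is short enough to occur in more than every other window, and Satb1, Tsc22d3 and Foxp1 have several windows each, which gives them more chances of a match. Each of these genes also has a window without the KLF core, which for Satb1 is chr17:51832598-51832897 (minus strand). A match is a description of letters, not of binding.

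The genes spanned a wide range of levels. Tsc22d3, which encodes GILZ, a glucocorticoid-induced inhibitor of activation signals, averaged 542 FPKM over the 6 libraries and lay at percentile 98.6 of the genes tested. Btg1, which recruits the deadenylation machinery to messenger RNA and maintains quiescence of lymphocytes, averaged 173 FPKM. Foxp1, a forkhead repressor needed for B cell development, followed at 84.9 FPKM and Klf2 at 74.9 FPKM. The remaining genes were lower, with mean levels of 27.7 FPKM for Klf4, 23.7 FPKM for Foxo1, 17.1 FPKM for Satb1, 12.2 FPKM for Foxo3, 9.57 FPKM for Cdkn1b and 5.88 FPKM for Klf3, the last at percentile 45.5. Only 3 steps in this order were larger than the spread over libraries: the ranges of the 6 libraries did not overlap between Tsc22d3 and Btg1, between Btg1 and Foxp1, and between Klf2 and Klf4. All other neighbours in the order had overlapping ranges. Behind these levels stood approximately 54 to 130 fragments per library for Klf3, 73 to 179 for Cdkn1b and 2186 to 4744 for Tsc22d3, estimated from relative depth and the longest coding transcript in GENCODE, so the low genes rest on far fewer fragments.

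**Figure D1:**
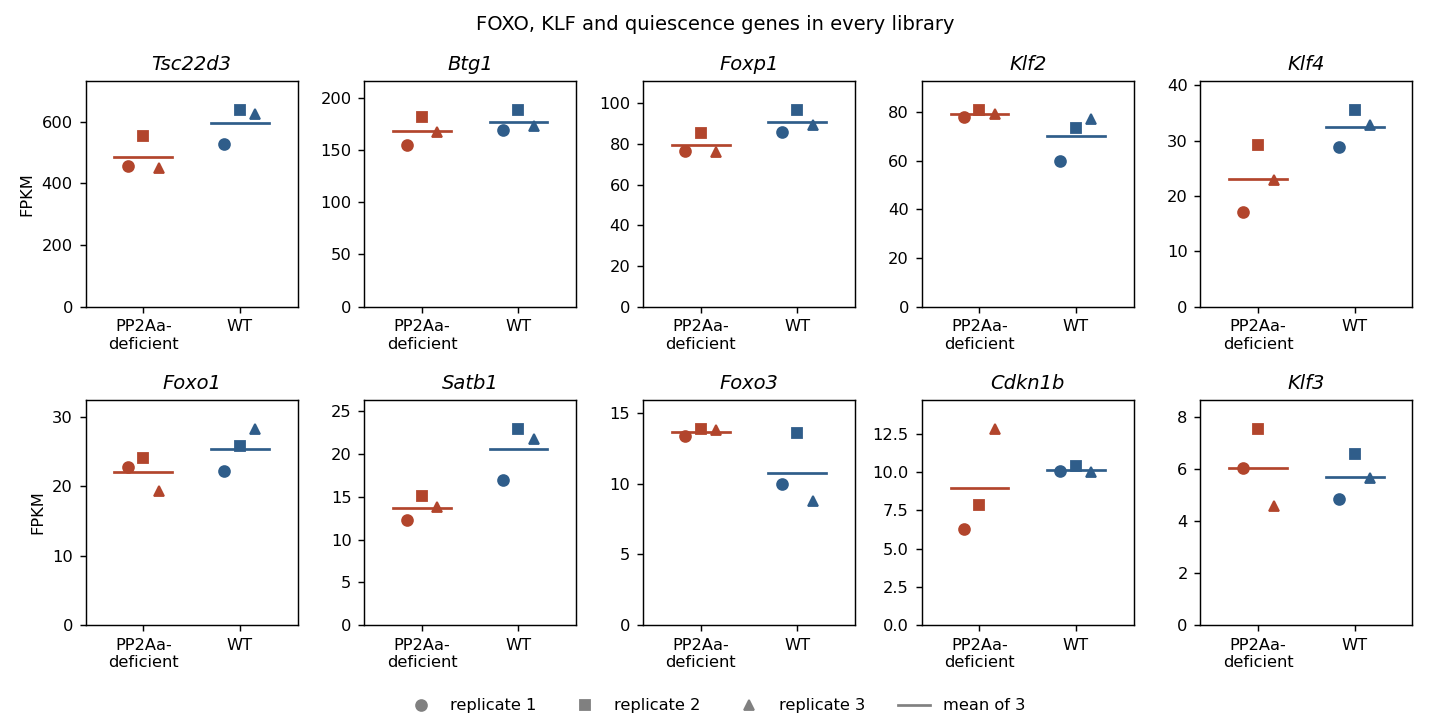
FPKM of each gene in every library, in order of mean level, with PP2Aa-deficient libraries left of WT libraries; symbols mark replicate numbers, horizontal lines the mean of 3, and every vertical axis starts at 0. Satb1 and Foxp1 are lower and Klf2 is higher in all 3 PP2Aa-deficient libraries than in any WT library, and the other 7 genes overlap.

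None of the 10 genes passed the test between genotypes, and the separation of the libraries was at most modest. At a limma adjusted p under 0.05, 0 of 10 were called, against 0.0318% of all genes tested (3 genes, all lower in PP2Aa-deficient libraries). At an unadjusted p under 0.05, 2 of the 10 genes, Satb1 and Klf4, were past the threshold, both lower in PP2Aa-deficient libraries, against 9.47% of all genes tested. Groups did not overlap and were lower in PP2Aa-deficient libraries for 2 of the 10 genes, Satb1 and Foxp1, against 7.40% of all genes. Klf2 alone was separate and higher in PP2Aa-deficient libraries, 1 of the 10 genes against 7.70% of all genes. The mean log2 value was lower in PP2Aa-deficient libraries for 7 of the 10 genes and for 51.1% of all genes tested, and the median log2 fold change was -0.19 over the 10 genes and -0.01 over all genes. Without PP2Aa-deficient replicate 1 the median of the 10 genes was -0.09. Of 10 marginal zone B cell markers tested, 9 were higher in PP2Aa-deficient libraries and 4 had an unadjusted limma p under 0.05 (median log2 fold change 0.32). Of 6 follicular B cell markers, 5 were lower and 3 had such a p, 1 higher and 2 lower (median -0.30). The higher one was Cr2, which belongs to both lists and is also among the 4 marginal zone markers with such a p. Of 8 B-1 cell markers, 6 were lower and 4 had such a p (median -0.33). Limma called 0 of each list. The part of B cell subsets in the values of the 10 genes was not tested. In bulk RNA, fewer cells of a type and less RNA per cell cannot be told apart.

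The FOXO factors themselves had values on opposite sides of WT. Foxo1, the main FOXO factor of B cell development and of follicular B cells, had 22.8, 24.1 and 19.2 FPKM in PP2Aa-deficient libraries, against 22.2, 25.8 and 28.2 FPKM in WT libraries. The ranges overlapped between 22.2 and 24.1 FPKM, and PP2Aa-deficient replicate 3 was the lowest of the 6. The log2 fold change of Foxo1 was -0.20 (SE 0.15, limma adjusted p = 0.744), with a 95% interval from -0.54 to 0.14, and it was -0.11 without PP2Aa-deficient replicate 3 and -0.12 without WT replicate 3. Foxo3, the other FOXO factor with a role in lymphocyte homeostasis, had 13.4, 13.9 and 13.8 FPKM in PP2Aa-deficient libraries, against 9.95, 13.6 and 8.76 FPKM in WT libraries. The 3 PP2Aa-deficient libraries lay close together at the top of the range, and WT replicate 2 lay among them while WT replicates 1 and 3 lay below. Foxo3 had a log2 fold change of 0.34 (SE 0.18, limma adjusted p = 0.588), with a 95% interval from -0.06 to 0.74. This value was 0.22 without WT replicate 3 and 0.51 without WT replicate 2. The ratio of Foxo1 to Foxo3 FPKM, a measure chosen after the values were seen and given only as a description, was 1.70, 1.74 and 1.39 in PP2Aa-deficient libraries, against 2.24, 1.90 and 3.22 in WT libraries. Every PP2Aa-deficient ratio was below every WT ratio, but the ratio was picked from these same values, so its separation is no evidence of a difference. The WT ratios varied more among themselves, with a mean of 1.61 ± 0.19 in PP2Aa-deficient libraries and 2.45 ± 0.69 in WT libraries (SD, n = 3 each).

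Among the KLF factors, Klf2 and Klf4 lay on opposite sides of WT and Klf3 had no clear direction. Klf2 had 78.3, 80.8 and 79.5 FPKM in PP2Aa-deficient libraries, against 60.0, 73.5 and 77.5 FPKM in WT libraries. All PP2Aa-deficient values were higher, but the gap between the groups was only 0.818 FPKM, and the spread lay on the WT side. The log2 fold change of Klf2 was 0.18 (SE 0.13, limma adjusted p = 0.723), with a 95% interval from -0.11 to 0.48, and it was 0.07 without WT replicate 1. Klf4 had 17.1, 29.1 and 22.9 FPKM in PP2Aa-deficient libraries, against 28.9, 35.5 and 32.8 FPKM in WT libraries. PP2Aa-deficient replicates 1 and 3 were below every WT library, and PP2Aa-deficient replicate 2 overlapped WT replicate 1. The mean Klf4 level in PP2Aa-deficient libraries was 71.2% of that in WT libraries, with a log2 fold change of -0.50 (SE 0.19, unadjusted p = 0.0317, limma adjusted p = 0.472) and a 95% interval from -0.94 to -0.06. Without PP2Aa-deficient replicate 1 it was -0.31. Macrophages also express Klf4, and 6 of the 7 macrophage markers tested were lower in PP2Aa-deficient libraries, against 51.1% of all genes tested. Of these, 2, Apoe and Emr1, had an unadjusted limma p under 0.05, against 9.47% of all genes tested in either direction. Lyz2, an abundant macrophage gene named after its values were seen, averaged 11.3 FPKM in PP2Aa-deficient libraries and 11.3 FPKM in WT libraries. The part of macrophages in the Klf4 values was not tested. Klf3, a repressor with a role in marginal zone B cells of mice, had 6.05, 7.55 and 4.59 FPKM in PP2Aa-deficient libraries, against 4.84, 6.58 and 5.66 FPKM in WT libraries. The PP2Aa-deficient libraries held both the highest and the lowest value of the 6. For Klf3 the log2 fold change was 0.07 (SE 0.20, limma adjusted p = 0.950), and its sign turned in 3 of the 16 other settings tried, with array weights (-0.04), without PP2Aa-deficient replicate 2 (-0.08) and without WT replicate 1 (-0.03). It was 0.22 without PP2Aa-deficient replicate 3 and 0.16 without WT replicate 2.

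Satb1, a chromatin organizer of lymphocytes that lies on chromosome 17 as Ppp2r1a does, had the lowest p of the 10 genes. It was at 12.3, 15.1 and 13.8 FPKM in PP2Aa-deficient libraries, against 17.0, 22.9 and 21.7 FPKM in WT libraries. The groups were separate by 1.95 FPKM, and the nearest libraries were PP2Aa-deficient replicate 2 and WT replicate 1. The PP2Aa-deficient mean was 66.8% of the WT mean, with a log2 fold change of -0.54 (SE 0.16, unadjusted p = 0.00866, limma adjusted p = 0.358) and a 95% interval from -0.91 to -0.18. This p ranked 227 among the 9425 genes tested. T cells also express Satb1. The 13 T cell markers summed to between 23.8 and 29.2 FPKM in PP2Aa-deficient libraries and between 22.9 and 38.6 FPKM in WT libraries, ranges that overlap. Lck was the largest part of this sum, at 10.8, 20.6 and 13.3 FPKM in PP2Aa-deficient libraries, against 28.9, 16.2 and 13.7 FPKM in WT libraries. Only 5 of the 13 markers had enough RNA to test, 2 with higher and 3 with lower values in PP2Aa-deficient libraries. Of these, Zap70 alone had an unadjusted limma p under 0.05, against 9.47% of all genes tested. It was at 3.42, 2.12 and 3.61 FPKM in PP2Aa-deficient libraries, against 1.20, 1.86 and 0.709 FPKM in WT libraries. The part of T cells in the Satb1 values was not tested. Foxp1 had 76.3, 85.3 and 76.2 FPKM in PP2Aa-deficient libraries, against 85.8, 96.4 and 89.4 FPKM in WT libraries. Its groups were separate by only 0.546 FPKM, again between PP2Aa-deficient replicate 2 and WT replicate 1. For Foxp1 the log2 fold change was -0.19 (SE 0.11, limma adjusted p = 0.663), with a 95% interval from -0.45 to 0.07.

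**Figure D2:**
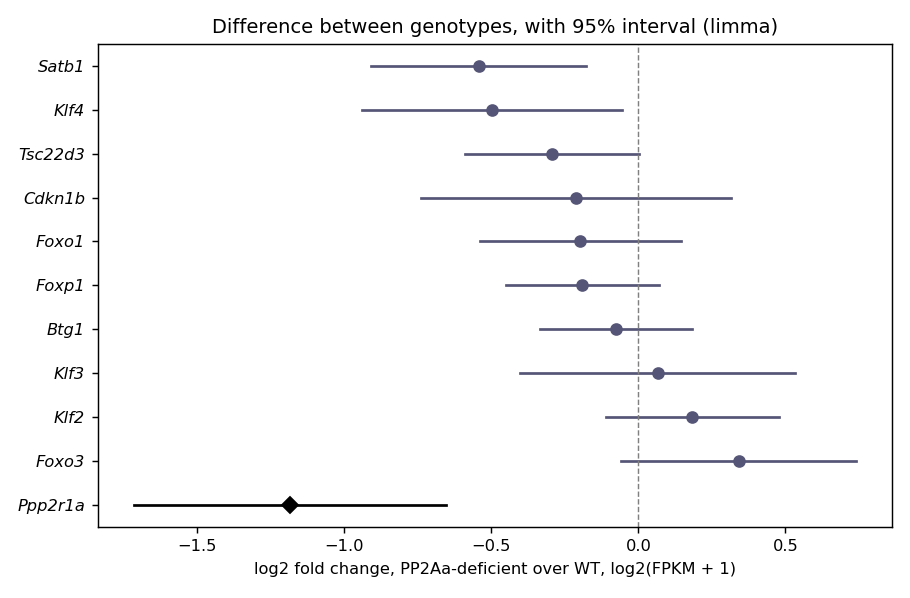
Log2 fold change of each gene, PP2Aa-deficient over WT, on the log2(FPKM + 1) scale; points are the limma estimates, bars their 95% intervals before any adjustment over genes, and the diamond is Ppp2r1a. The intervals of Satb1 and Klf4 lie below 0, and those of the other 8 genes include 0.

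The 3 genes that act more directly on division or activation had lower mean values in PP2Aa-deficient libraries, with no call. Tsc22d3, an X-linked gene, had 458, 554 and 450 FPKM in PP2Aa-deficient libraries, against 527, 637 and 627 FPKM in WT libraries. PP2Aa-deficient replicates 1 and 3 were below every WT library, and PP2Aa-deficient replicate 2 was above WT replicate 1. The log2 fold change of Tsc22d3 was -0.29 (SE 0.13, unadjusted p = 0.0515, limma adjusted p = 0.527). Btg1 had 155, 182 and 168 FPKM in PP2Aa-deficient libraries, against 170, 188 and 173 FPKM in WT libraries. These ranges overlapped, and the log2 fold change of -0.08 (SE 0.11, limma adjusted p = 0.887) had a 95% interval from -0.33 to 0.18, the narrowest of the 10 genes. This value was -0.02 without PP2Aa-deficient replicate 1, -0.13 without PP2Aa-deficient replicate 2 and -0.03 without WT replicate 2 or with quantile normalization. Cdkn1b encodes p27, the inhibitor of cyclin-dependent kinases whose gene FOXO factors activate. It had 6.29, 7.84 and 12.8 FPKM in PP2Aa-deficient libraries, against 10.05, 10.4 and 9.995 FPKM in WT libraries. The WT libraries differed by less than 1 FPKM, while the PP2Aa-deficient libraries lay on both sides of them, replicate 3 above and replicates 1 and 2 below. Cdkn1b had a log2 fold change of -0.21 (SE 0.23, limma adjusted p = 0.831), and the widest 95% interval of the 10 genes, from -0.74 to 0.31. It was -0.01 without PP2Aa-deficient replicate 1 and -0.47 without PP2Aa-deficient replicate 3.

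Differences between libraries of 1 genotype followed a common order in these genes. PP2Aa-deficient replicate 2 was the highest of its group in 9 of the 10 genes, the exception being Cdkn1b, and it was the highest in 35.3% of all genes tested. WT replicate 2 was the highest of its group in 8 of the 10 genes, against 30.4% of all genes tested, and WT replicate 1 the lowest in 8 of 10, against 40.3%. WT replicate 2 was also the deepest library, at 1.757 times the depth of WT replicate 1, while PP2Aa-deficient replicate 2 was the shallowest, at 0.978 times. Among the 7 genes with lower values, PP2Aa-deficient replicate 2 was the nearest of its group to the WT mean in 6. The share was 34.6% over all genes tested with lower values. PP2Aa-deficient replicate 2 was the farthest from the WT mean in the 3 genes with higher values, Foxo3, Klf2 and Klf3, narrowly so for Foxo3 and Klf2. A relation of this order to the Ppp2r1a level of the library was not tested.

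**Figure D3:**
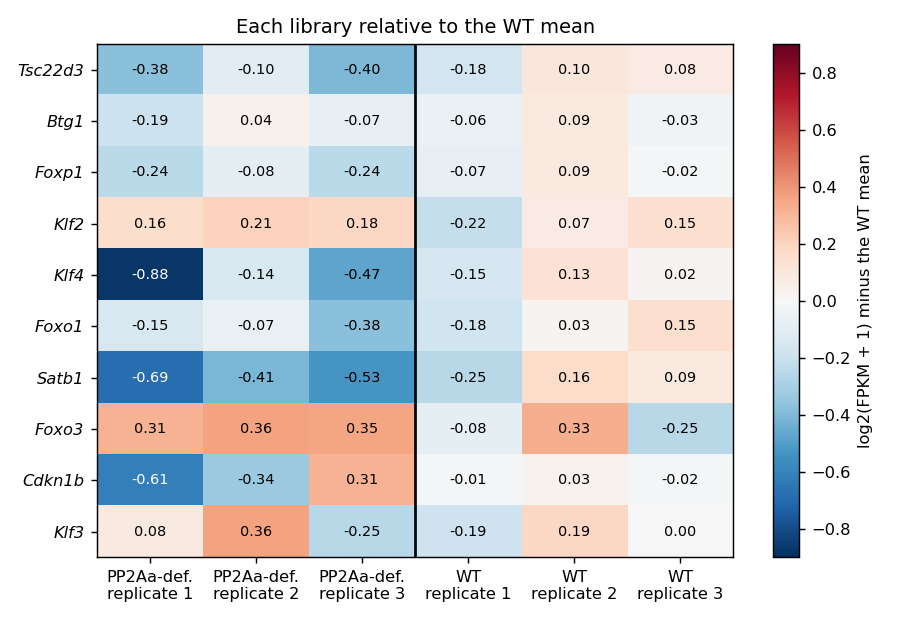
Difference of each library from the WT mean on the log2(FPKM + 1) scale, with genes in rows by mean level and PP2Aa-deficient libraries left of WT libraries; blue is below and red above the WT mean. The column of PP2Aa-deficient replicate 2 is paler or redder than those of replicates 1 and 3 in most rows, and the rows of Satb1, Klf4, Tsc22d3, Foxo1 and Foxp1 are blue in all 3 PP2Aa-deficient libraries.

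Relatives of these genes gave no call either. Counts of genes in the lists that follow can be read against all genes tested, of which 9.47% had an unadjusted p under 0.05 and 51.1% had lower mean values in PP2Aa-deficient libraries. Of 9 other forkhead genes tested, 3 had higher and 6 lower mean values in PP2Aa-deficient libraries, 0 were called by limma and 0 had an unadjusted p under 0.05, with a median log2 fold change of -0.13. Foxn3, the most abundant of them, had 29.2, 41.8 and 35.5 FPKM in PP2Aa-deficient libraries, against 35.5, 28.9 and 30.4 FPKM in WT libraries. Foxk1 and Foxj3 had the smallest p of the list (limma adjusted p = 0.533 and 0.551). Foxk1, a forkhead factor of starvation responses, was at 2.67, 4.25 and 3.73 FPKM in PP2Aa-deficient libraries, against 1.41, 2.11 and 2.91 FPKM in WT libraries. Foxj3 was lower, at 7.60, 6.49 and 9.40 FPKM in PP2Aa-deficient libraries, against 10.8, 9.92 and 9.82 FPKM in WT libraries. It was the only 1 of the 9 with separate groups, against 7.40% of all genes tested separate and lower. Foxo4, the third FOXO gene with enough RNA to test, had 1.62, 3.17 and 2.06 FPKM in PP2Aa-deficient libraries, against 5.16, 2.52 and 2.76 FPKM in WT libraries, overlapping ranges at low levels. Of 8 other KLF genes tested, 3 had higher and 5 lower values, with 0 called by limma, 0 at an unadjusted p under 0.05 and a median of -0.05. Klf7 had the smallest p of these, with 4.23, 8.13 and 6.90 FPKM in PP2Aa-deficient libraries, against 9.92, 14.1 and 6.79 FPKM in WT libraries (limma adjusted p = 0.558), and 1 WT library lay below 2 of the PP2Aa-deficient ones. Klf6 was the most abundant KLF gene, at 230, 356 and 283 FPKM in PP2Aa-deficient libraries, against 299, 272 and 321 FPKM in WT libraries, with overlapping groups. Btg2, the antiproliferative relative of Btg1, was at 77.4, 93.0 and 74.6 FPKM in PP2Aa-deficient libraries, against 97.3, 104.9 and 113.0 FPKM in WT libraries. These groups were separate, with a log2 fold change of -0.36 (SE 0.13, unadjusted p = 0.0214, limma adjusted p = 0.431). Tsc22d4, a relative of Tsc22d3, was at 8.88, 8.67 and 9.71 FPKM in PP2Aa-deficient libraries, against 19.9, 15.2 and 11.1 FPKM in WT libraries, also separate (log2 fold change -0.67, SE 0.21, limma adjusted p = 0.374). Cdkn1a, which encodes the CDK inhibitor p21, was at 13.0, 22.5 and 10.6 FPKM in PP2Aa-deficient libraries, against 21.6, 24.3 and 23.5 FPKM in WT libraries. Its PP2Aa-deficient replicate 2 lay within the WT range (log2 fold change -0.63, SE 0.24, limma adjusted p = 0.472).

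Genes known as targets of the FOXO factors and of KLF2 were mixed. Of 25 FOXO targets tested, 10 had higher and 15 lower mean values in PP2Aa-deficient libraries, 0 were called by limma, and 5 had an unadjusted p under 0.05 (9.47% of all genes), 1 higher and 4 lower. Their median log2 fold change was -0.10. Pink1, a kinase of mitochondrial quality control, was at 1.21, 2.52 and 1.79 FPKM in PP2Aa-deficient libraries, against 4.10, 3.73 and 3.84 FPKM in WT libraries (log2 fold change -0.81, SE 0.22, limma adjusted p = 0.296). Trib1, a pseudokinase, was at 12.3, 12.7 and 13.99 FPKM in PP2Aa-deficient libraries, against 16.8, 18.5 and 17.2 FPKM in WT libraries (limma adjusted p = 0.401). Gadd45a, a growth arrest gene, had higher values, at 6.76, 6.75 and 6.95 FPKM in PP2Aa-deficient libraries, against 4.18, 5.54 and 4.21 FPKM in WT libraries (limma adjusted p = 0.420). Each of these 3 genes separated the groups. Of 9 KLF2 targets tested, 2 had higher and 7 lower values, with a median log2 fold change of -0.22, 0 called by limma and 3 at an unadjusted p under 0.05. Ccr7, the chemokine receptor for entry to lymph nodes and a gene of both lists, was the most abundant, at 1019, 1423 and 981 FPKM in PP2Aa-deficient libraries, against 1279, 1512 and 1598 FPKM in WT libraries. PP2Aa-deficient replicate 2 was within the WT range for Ccr7 (log2 fold change -0.37, SE 0.16, limma adjusted p = 0.526), as it was for Cdkn1a. Plxnd1, a plexin of cell guidance and the only other KLF2 target past an unadjusted p of 0.05 besides Ccr7 and Cdkn1a, was at 3.74, 2.46 and 3.71 FPKM in PP2Aa-deficient libraries, against 1.21, 2.43 and 1.96 FPKM in WT libraries.

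Other genes of quiescence and the kinases and regulators upstream of FOXO gave no call. Of 25 other quiescence genes tested, 9 had higher and 16 lower values, with a median log2 fold change of -0.10, 0 called by limma and 2 at an unadjusted p under 0.05, which were Bach2 and Btg2. Bach2, a repressor that holds B cells back from plasma cell differentiation, was at 7.10, 8.36 and 6.69 FPKM in PP2Aa-deficient libraries, against 12.5, 12.1 and 10.8 FPKM in WT libraries (log2 fold change -0.61, SE 0.15, limma adjusted p = 0.250). Txnip, which limits glucose uptake and is high in resting cells, was at 100.2, 99.4 and 104.4 FPKM in PP2Aa-deficient libraries, against 104.8, 145.5 and 123.4 FPKM in WT libraries, separate by a narrow gap (limma adjusted p = 0.563). All 9 plasma cell markers tested were also lower in PP2Aa-deficient libraries, 4 of them at an unadjusted limma p under 0.05, against 9.47% of all genes. Of 20 kinases and regulators of the AKT and SGK pathway, 7 had higher and 13 lower values, with 0 called by limma and 3 at an unadjusted p under 0.05. Pdpk1, the kinase that phosphorylates AKT, was at 13.6, 15.0 and 12.9 FPKM in PP2Aa-deficient libraries, against 7.66, 11.5 and 11.1 FPKM in WT libraries. Inpp4b, a phosphatase that opposes AKT, was at 6.03, 6.31 and 4.90 FPKM in PP2Aa-deficient libraries, against 4.08, 3.57 and 3.31 FPKM in WT libraries, so a gene promoting and a gene opposing AKT activity were both separate and higher. Sgk1, a kinase that also phosphorylates FOXO proteins, was at 16.6, 17.2 and 9.37 FPKM in PP2Aa-deficient libraries, against 18.5, 20.9 and 28.5 FPKM in WT libraries.

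Of the 7 genes of 14-3-3 proteins, which hold phosphorylated FOXO in the cytoplasm, 2 had higher and 5 lower values, and 1 was called. Sfn, which encodes 14-3-3 sigma, was at 2.76, 3.68 and 2.27 FPKM in PP2Aa-deficient libraries, against 35.4, 45.8 and 34.5 FPKM in WT libraries. It fell by 3.34 on the log2 scale (SE 0.19, limma adjusted p = 0.000432). None of the other 6 genes was called. Ywhaz, by far the most abundant of them, was at 306, 329 and 281 FPKM in PP2Aa-deficient libraries, against 315, 373 and 364 FPKM in WT libraries (log2 fold change -0.20, SE 0.12, limma adjusted p = 0.657). Ywhah was separate and higher, at 55.3, 59.2 and 60.8 FPKM in PP2Aa-deficient libraries, against 41.8, 48.7 and 51.6 FPKM in WT libraries (limma adjusted p = 0.510). Ywhae was separate and lower, at 37.6, 34.1 and 31.7 FPKM in PP2Aa-deficient libraries, against 39.4, 47.1 and 39.7 FPKM in WT libraries (limma adjusted p = 0.555). The summed FPKM of the 7 genes ran from 479 to 524 in PP2Aa-deficient libraries and from 531 to 622 in WT libraries. Without Sfn the other 6 genes summed to between 477 and 520 FPKM in PP2Aa-deficient libraries and between 496 and 577 FPKM in WT libraries, which overlap.

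Readouts of division and of recent stimulation were examined beside them. Of 18 proliferation markers tested, 3 had higher and 15 lower values in PP2Aa-deficient libraries (51.1% of all genes were lower), with a median log2 fold change of -0.17, 0 called by limma, 0 at an unadjusted p under 0.05 and 0 with separate groups. Pcna, the replication clamp and the most abundant of them, was at 120.0, 87.1 and 130.4 FPKM in PP2Aa-deficient libraries, against 138.5, 115.2 and 118.0 FPKM in WT libraries. Mcm3, a subunit of the replicative helicase with the smallest p of the list, was at 14.5, 10.2 and 16.4 FPKM in PP2Aa-deficient libraries, against 21.7, 19.9 and 15.0 FPKM in WT libraries (limma adjusted p = 0.544). In both markers PP2Aa-deficient replicate 2, the highest of its group in most of the 10 genes, was the lowest. Of 16 genes of p27 degradation and p27 targets, 6 had higher and 10 lower values, with 0 called by limma and only Ccnd2 at an unadjusted p under 0.05. Ccnd2, the cyclin induced by B cell receptor signals, was at 7.17, 7.45 and 7.49 FPKM in PP2Aa-deficient libraries, against 9.37, 9.45 and 10.7 FPKM in WT libraries (log2 fold change -0.37, SE 0.14, limma adjusted p = 0.472). Of 15 glucocorticoid targets other than Tsc22d3, 6 had higher and 9 lower values, with 0 called by limma and 3 at an unadjusted p under 0.05, all lower in PP2Aa-deficient libraries, which were Rgs2, Gadd45g and Sgk1. Rgs2, a regulator of G protein signals, was at 58.0, 89.99 and 67.0 FPKM in PP2Aa-deficient libraries, against 97.1, 97.6 and 96.2 FPKM in WT libraries. Fkbp5, a widely used readout of the glucocorticoid receptor named after its values were seen, was at 1.78, 2.04 and 1.64 FPKM in PP2Aa-deficient libraries, against 1.65, 0.937 and 0.668 FPKM in WT libraries. These low values overlapped between the groups (limma adjusted p = 0.598). Of 20 immediate early genes, which rise within minutes of handling or stimulation, 7 had higher and 13 lower values, with 0 called by limma and 7 at an unadjusted p under 0.05 (9.47% of all genes), 2 higher and 5 lower. Dusp2, a phosphatase of MAP kinases, was at 252, 255 and 258 FPKM in PP2Aa-deficient libraries, against 185, 59.4 and 73.1 FPKM in WT libraries (log2 fold change 1.45, SE 0.35, limma adjusted p = 0.250). Jun was at 113, 124 and 138 FPKM in PP2Aa-deficient libraries, against 153, 173 and 167 FPKM in WT libraries (limma adjusted p = 0.370). Nr4a1, the most abundant of them and a readout of antigen receptor signals, was at 790, 1093 and 914 FPKM in PP2Aa-deficient libraries, against 871, 1260 and 1065 FPKM in WT libraries, with overlapping groups (limma adjusted p = 0.799). Klf2, Klf4 and Btg1 can respond to handling of the cells too, and the part of such a response in their values was not tested.

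**Figure D4:**
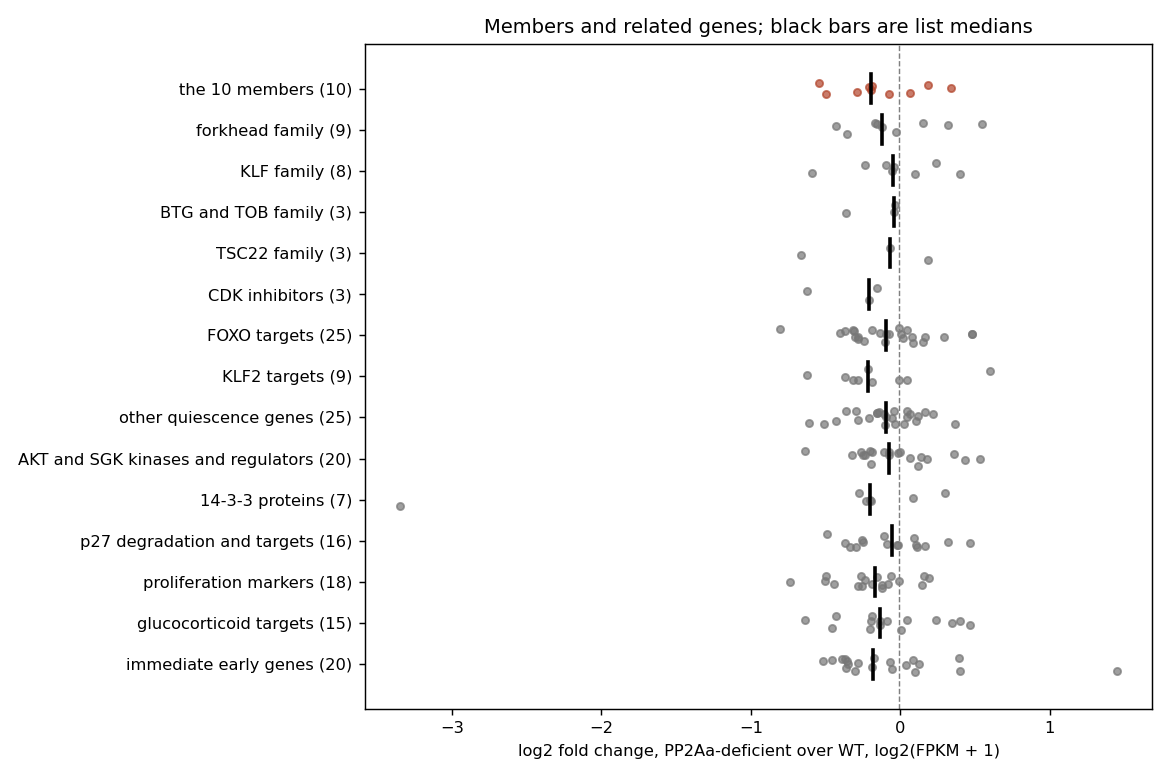
Log2 fold change, PP2Aa-deficient over WT on the log2(FPKM + 1) scale, of the 10 genes and of the tested genes of each related list, with the number of genes in brackets; every point is a gene, black bars are list medians, and genes may belong to several lists. The medians of the lists shown lie between -0.22 and -0.05, and the lone point at -3.34 is Sfn. Lists of cell type markers are not shown.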

How the data were processed

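RNA was measured in 6 Smart-seq2 libraries made from small amounts of total RNA, per the labels' protocols, 3 PP2Aa-deficient and 3 WT, grouped by source label. The authors deposited 1 table of FPKM values with 22815 rows, of which 27 held dates in place of symbols and were left out. The submitters' processing notes list Cuffnorm, Cufflinks 2.2.1, TopHat2 2.0.10 and BWA without saying what each did. The sources used here do not give the scaling between libraries, genome build, annotation or use of strand, so antisense or overlapping transcripts (Gm20402 at Foxo1, Gm20033 at Klf3, Gm6934 and Gm36931 at Satb1, Gm20696 and Gm49348 at Foxp1) and the pseudogenes of Btg1 may share reads. In the deposited plate sheet the PP2Aa-deficient wells are named as miRNA targets and the WT wells as controls, which differs from the genotype labels used here. Its 6 other wells were not analysed here.

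FPKM keeps no depth. Steps of 1 fragment between low values gave relative depths of 1.186, 0.978 and 1.147 in PP2Aa-deficient and 1.00, 1.757 and 1.231 in WT libraries, about 2100000 to 3770000 fragments with GENCODE transcript lengths, which limits the precision of low genes. Genes at 1 FPKM or more in at least 3 libraries, 9425 in all and all 10 members, were tested as log2(FPKM + 1) with limma 3.58.1 in R 4.3.3 (two-sided, mean-variance trend, Benjamini-Hochberg adjustment over all genes tested at 0.05). Fold changes on this scale understate the change of low genes. The step was tested on simulated data with planted changes larger than those of the 10 genes. That test does not show whether changes of their size would be called. Summaries and figures used Python 3.11.15 (matplotlib 3.10.9, pandas 2.3.3, scipy 1.17.1, numpy 2.4.6).

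The 10 genes, the lists and the tests were chosen with earlier results of these data known. Foxred1, an oxidoreductase, was taken out of the forkhead list after values were seen. A further list gene is not reported here. Named were all 10 genes, Ppp2r1a, and of each list the called gene, or otherwise genes among the 3 of smallest p and the most abundant one. Foxo4 was among the 3 of smallest p, and Fkbp5, Mzb1, Ywhae, Ywhah and Ywhaz were named after their values were seen. Alternatives were median-ratio scaling, quantile normalization, pseudocounts of 0.1 and 0.5, a filter at 5 FPKM, no filter, array weights, no trend, robust moderation, a term for Xist-positive libraries and leaving out each library.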

Additional observations from a re-analysis of the deposited data

How the results depend on the processing

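Over 16 alternative settings, 0 of the 10 genes were called in any, and the lowest adjusted p of any of them was 0.157, for Satb1 with array weights. Of 160 values of these genes under the alternatives, 157 kept their direction and their side of the threshold. The 3 that changed direction were all of Klf3, at -0.0399 with array weights, and leaving out 1 library moved Klf3 between -0.0835 and 0.223. Satb1 stayed between -0.67 and -0.46 on the log2 scale and Klf4 between -0.68 and -0.31, with adjusted p between 0.157 and 0.690 for Satb1 and between 0.267 and 0.792 for Klf4. Over all genes, the calls higher in PP2Aa-deficient libraries, 0 as reported, numbered 1 with no filter, 3 with a filter at 5 FPKM, 7 with quantile normalization, 4 with no trend, 11 with array weights, 10 with robust moderation and 0 to 4 on leaving out 1 library. The calls lower in PP2Aa-deficient libraries, 3 as reported, numbered 5 with no trend, 5 with array weights, 5 with robust moderation and 1 to 12 on leaving out 1 library. Ppp2r1a ranged from -1.48 to -0.998 on leaving out 1 library and passed the test only without PP2Aa-deficient replicate 2, with an adjusted p of 0.00555. The causes of these shifts were not tested. Of 367 list medians, 25 moved by more than 1 SD and 10 changed sign, and a list with no gene left under a filter gives no value. The labels give no shared replicate numbers, so no pairing was examined. Klf3 and Cdkn1b rest on the fewest fragments, and a p that misses the threshold does not show that the groups are alike.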
